A study of Arabidopsis thaliana with 8 samples.

Results

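The aquaporin genes of Arabidopsis thaliana were taken as all non-control probes whose annotated transcript is an mRNA of 1 of the 35 loci of the PIP, TIP, NIP and SIP families. The array carried 80 such probes among 43603 distinct non-control probes, and each of the 35 loci had at least 1. PIP1 had 5 loci with 21 probes, PIP2 had 8 loci with 21 probes, TIP had 10 loci with 25 probes, NIP had 9 loci with 9 probes and SIP had 3 loci with 4 probes. Probes of a locus share their transcript and are not replicates of a genotype.

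Aquaporins are membrane channels that let water, and in some members small uncharged solutes, cross a membrane along its gradient. PIP proteins reside mainly in the plasma membrane and TIP proteins mainly in the vacuolar membrane, while NIP proteins carry solutes such as boric acid and SIP proteins lie in the endoplasmic reticulum. In plants these channels set how easily water moves through roots and leaves and into expanding cells, and several TIP members are known from particular stages such as the maturing seed or pollen.

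Total RNA of 12-day-old seedlings was hybridised to 8 one-colour Cy3 arrays, with 2 arrays for each of 4 genotypes: ros1-1 hda6-10, ros1-1 hda6-9, ros1-1 and C24 wild type. ROS1 is a DNA glycosylase that removes methylated cytosine, and HDA6 is a histone deacetylase that takes part in gene silencing. The hda6-10 allele has lost a few bases where exon 1 ends, which truncates the protein, and hda6-9 carries a T-DNA just before the stop codon, so that only the end of the protein is replaced. All 4 genotypes carry a transgene with luciferase driven by the RD29A promoter and a kanamycin resistance gene, each hda6 allele is 1 recovered line in the ros1-1 background, and all seedlings grew under 16 h days at 21 °C and spent 1 d at 4 °C before harvest. The double mutants are called hda6-10 and hda6-9 below.

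A level is the log2 signal of a probe minus that of the 75th percentile probe of its array, so that 0 stands for the 75th percentile, and a difference between genotypes is a difference of such levels. Levels of different probes are not set against each other. The 75th percentile signal ran from 2004 to 3680 over the arrays, 77.2% to 80.6% of spots were well above background, and the replicates of a genotype correlated at 0.990 to 0.993 over the probes. Leaf markers were above background on all arrays (4 of 4 genes), as were 4 of 5 root markers and 3 of 4 seed markers, while 2 of 3 pollen markers were above background on none. Leaf markers summed to levels of 307 and 286 in hda6-10, 210 and 299 in hda6-9, 229 and 257 in ros1-1, and 218 and 245 in C24, in units of the 75th percentile signal. Root markers summed in the same units to 0.379 and 0.323 in hda6-10, 0.144 and 0.281 in hda6-9, 0.433 and 0.409 in ros1-1, and 0.466 and 0.233 in C24. Seed markers summed to 0.0456 in hda6-9 replicate 2 and 0.0194 in C24 replicate 2, against 0.336 to 0.957 on the other 6 arrays. A sum over 4 cold-induced genes reached 15.4 and 12.0 in hda6-10, against 6.97 and 8.72 in hda6-9, 8.95 and 7.27 in ros1-1, and 8.83 and 8.44 in C24. This sum weights the brightest genes most. RD29A rose by 5.74 and 6.30 over its 2 probes in hda6-10 (adjusted p = 0.0098 and 0.0023, limma), and COR15A by 1.44 (adjusted p = 0.033). In hda6-9 the RD29A probes differed by 1.54 and 0.39 (adjusted p = 0.25 and 0.69) and COR15A by 1.125 (adjusted p = 0.065). COR47 and KIN1 did not pass in either allele. HDA6 itself, measured by 2 probes, was lower in hda6-10 and higher in hda6-9 than in ros1-1 with both (adjusted p between 0.00014 and 0.00068, limma). By RT-PCR the study found no full-length HDA6 transcript in either mutant, and which part of the transcript the probes detect was not checked. Over the 4 probes of HDA6 and ROS1 together, 3 fell in hda6-10 and 2 rose in hda6-9 at an adjusted p under 0.05. The arrays lay on 4 slides, with both hda6-10 arrays beside ros1-1 replicate 1, hda6-9 replicate 1 beside ros1-1 replicate 2, and hda6-9 replicate 2 and the C24 pair on slides of their own. Slide and genotype therefore cannot be told apart for C24.

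Most aquaporin transcripts were present in these seedlings. Of the 80 probes, 75 exceeded background clearly on every one of the 8 arrays and 3 on none. TIP1-3 (AT4G01470) and NIP4-1 (AT5G37810), both known from pollen, were each represented by 1 of those 3 probes and were not well above background anywhere, and the third was 1 of 4 probes of PIP1-1 (AT3G61430). The tests therefore covered 77 probes of 33 loci. NIP6-1 (AT1G80760), a boric acid channel of young shoots, was above background on 5 arrays and was the most variable member, with levels of −5.20 and −8.88 in hda6-10, −7.91 and −9.93 in hda6-9, −9.10 and −7.49 in ros1-1 and −7.19 and −7.46 in C24. These values overlapped between the hda6 alleles and ros1-1, so no difference could be read for it.

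TIP3-2 was the aquaporin that rose by more than 2-fold in both hda6 alleles, and TIP2-2 did so in hda6-10 with some of its probes. In hda6-10 against ros1-1, 3 of 77 probes (3.9%) were higher by more than 2-fold at an adjusted p under 0.05, 1 of TIP3-2 and 2 of TIP2-2, beside 5.02% of all 35391 tested probes, and 0 were lower by that rule, beside 1.35% of all tested probes. Without the minimum fold, 5 probes rose (background 8.62%) and 3 fell (background 3.43%). In hda6-9 against ros1-1, 1 probe (1.3%), that of TIP3-2, was higher by more than 2-fold, beside 4.3% of all tested probes, and 0 were lower, beside 1.37%. Without the minimum fold, 2 probes rose in hda6-9 (background 8.72%) and 0 fell (background 3.47%). With so few members called, no difference from the whole array was read from these shares. By the weaker measure of arrays that do not overlap, 33 probes (42.9%) lay above and 20 (26%) below ros1-1 in hda6-10, beside 31.2% and 24.2% of all tested probes. In hda6-9, 26 probes (33.8%) were higher and 10 (13%) lower, beside 34.8% and 26.9%. Of the 33 tested loci, 9 had a probe with an adjusted p under 0.05 in any of the 4 comparisons and 24 had none. The matching share over all loci was not computed, and a locus with more probes had more chances to be called. Nothing is read from this count about the family. Both alleles were compared with the same ros1-1 arrays, so the 2 sets of differences are not independent of each other.

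**Figure D1:**
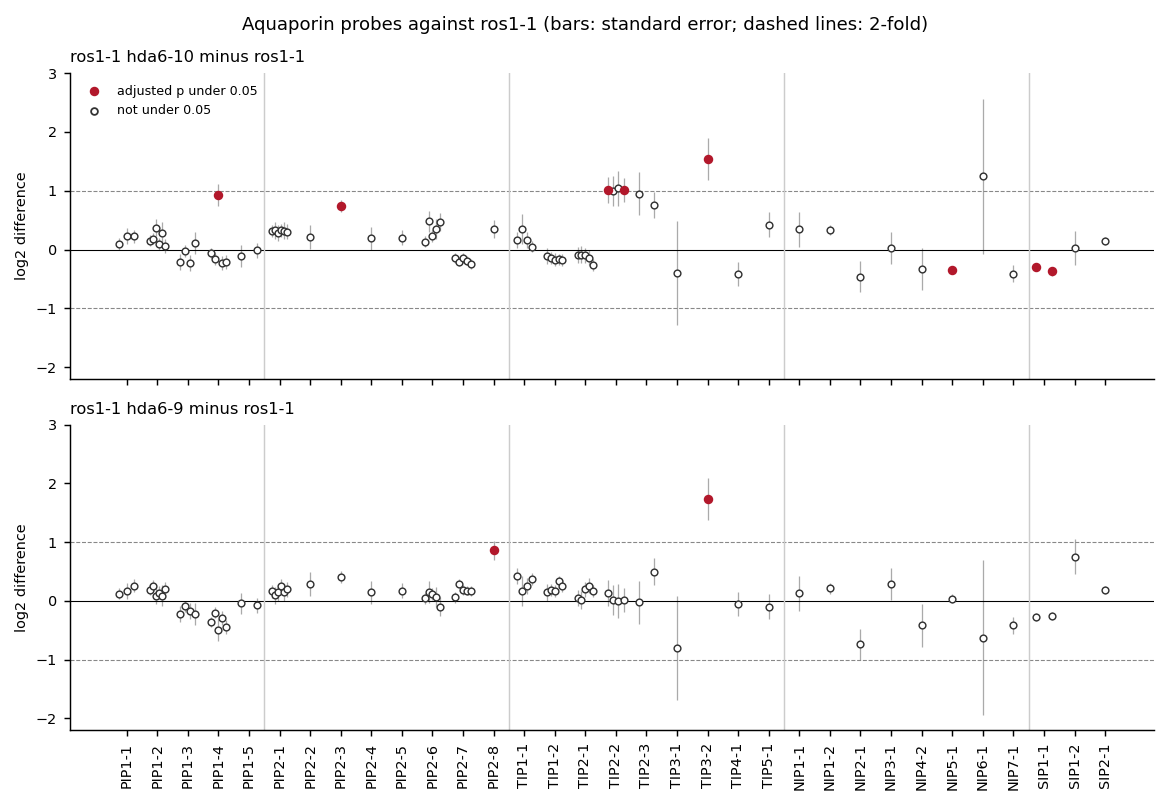
Difference in level (log2, y axis) of each of the 77 tested aquaporin probes, grouped by locus (x axis), for hda6-10 minus ros1-1 (upper panel) and hda6-9 minus ros1-1 (lower panel), with standard errors as bars and dashed lines at 2-fold. Filled points have an adjusted p under 0.05 (8 probes in the upper panel, 2 in the lower), and TIP3-2 is the filled point above the 2-fold line in both panels.

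The precision was enough to bound most members. For hda6-10 against ros1-1, the 95% interval of the difference lay wholly within 2-fold in either direction for 63 of 77 probes, and for hda6-9 against ros1-1 for 69 of 77. It did so for 19 of 20 PIP1 probes and 20 of 21 PIP2 probes in hda6-10, but only for 16 of 24 TIP probes and 4 of 8 NIP probes. The plasma membrane aquaporins were therefore the best bounded of the larger families and the NIP genes, many of them dim, the least.

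Among the plasma membrane aquaporins, PIP2-3 rose in hda6-10 and PIP2-8 in hda6-9, each measured by 1 probe. No further probe of these loci could be set beside it. PIP2-3 (AT2G37180), a water channel, had levels of −1.86 and −2.11 in hda6-10, −2.31 and −2.32 in hda6-9, −2.69 and −2.77 in ros1-1 and −2.59 and −2.64 in C24. All hda6 values lay above all values of the other genotypes, with hda6-10 highest. The gene rose 1.68-fold in hda6-10 (0.75 ± 0.10 on the log2 scale, SE, adjusted p = 0.009, limma), and its difference in hda6-9 was 1.33-fold (0.41 ± 0.10, adjusted p = 0.056), with 0.34 ± 0.10 for hda6-10 minus hda6-9 (adjusted p = 0.13). Leaving out ros1-1 replicate 2 took the adjusted p in hda6-10 to 0.052, leaving out any other single array kept it at 0.047 or below, and within the slide that holds both hda6-10 arrays and ros1-1 replicate 1 the difference was 0.70 with an adjusted p of 0.10. PIP2-2 (AT2G37170), its neighbouring locus and closest relative, differed by 0.21 ± 0.20 in hda6-10 and 0.29 ± 0.20 in hda6-9 (adjusted p = 0.59 and 0.39). Cross-hybridisation between such near-identical copies could not be checked, because probe sequences were not used here.

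PIP2-8 (AT2G16850) had levels of −0.95 and −1.32 in hda6-10, −0.68 and −0.57 in hda6-9, −1.43 and −1.53 in ros1-1 and −1.84 and −1.54 in C24. Both hda6-9 values stood above all others, and the hda6-10 values lay between them and ros1-1. The gene rose 1.82-fold in hda6-9 (0.86 ± 0.16, adjusted p = 0.026) and differed by 0.35 ± 0.16 in hda6-10 (adjusted p = 0.24). The direct difference between the alleles was −0.51 ± 0.16 for hda6-10 minus hda6-9 (adjusted p = 0.13), so the alleles were not shown to differ for this gene. The call in hda6-9 was lost without any single one of the hda6-9 or ros1-1 arrays (adjusted p up to 0.12), and within the slide shared by hda6-9 replicate 1 and ros1-1 replicate 2 the difference was 0.86 with an adjusted p of 0.24.

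The remaining PIP2 genes moved little. PIP2-1 (AT3G53420), a main water channel of roots and leaves, was represented by 6 probes, and all 6 were higher in hda6-10 than in ros1-1, by 0.28 to 0.33, with no overlap between the arrays of the genotypes on any of them and adjusted p of 0.13 to 0.27. PIP2-6 (AT2G39010) behaved similarly in hda6-10, with differences of 0.13 to 0.48 over 5 probes and adjusted p of 0.13 to 0.45. In hda6-9 the 6 PIP2-1 probes differed by 0.09 to 0.26 and the PIP2-6 probes by −0.10 to 0.14. PIP2-4 (AT5G60660) and PIP2-5 (AT3G54820) differed by 0.15 to 0.20 in either allele, with adjusted p of 0.38 or more. Over the family, 16 of 21 PIP2 probes lay above 0 in hda6-10 with a median difference of 0.28, and 20 of 21 in hda6-9 with a median of 0.17, beside a median of 0.02 for all tested probes in each comparison. Under another scaling the PIP2 median stayed above 0 in both alleles, at 0.19 to 0.30 in hda6-10 and 0.07 to 0.14 in hda6-9. The leaf marker probes moved the same way in hda6-10, with differences of 0.05 to 0.41 and a median of 0.25 over 32 probes, while their median in hda6-9 was −0.01, and 0 of them passed the test in either allele. The part of leaf transcripts in the PIP2 values was not tested.

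PIP1 genes stayed close to ros1-1, with a median difference of 0.08 over 20 probes in hda6-10 and −0.06 in hda6-9. Under a median shift the median of hda6-10 was −0.01 and under quantile normalization −0.02, so the family had no direction there. PIP1-1 and PIP1-2 (AT2G45960), which form channels together with PIP2 proteins, had differences of 0.06 to 0.37 in hda6-10 and 0.08 to 0.26 in hda6-9 over their 9 tested probes, none with an adjusted p under 0.05. PIP1-3 (AT1G01620) differed by −0.23 to 0.11 and PIP1-5 (AT4G23400) by −0.11 to −0.01 in hda6-10, and in hda6-9 by −0.23 to −0.10 and by −0.08 to −0.04.

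PIP1-4 (AT4G00430) was the exception, and its 5 probes disagreed. Probe A_84_P809477 had levels of −1.74 and −2.26 in hda6-10, −3.42 and −3.42 in hda6-9, −3.07 and −2.78 in ros1-1 and −2.76 and −2.86 in C24. Both hda6-10 values were above, and both hda6-9 values below, all values of ros1-1 and C24. With this probe PIP1-4 rose 1.90-fold in hda6-10 (0.93 ± 0.19, adjusted p = 0.033) and differed by −0.49 ± 0.19 in hda6-9 (adjusted p = 0.15). The other 4 probes, annotated to a different transcript record of the locus, differed by −0.23 to −0.06 in hda6-10 and by −0.45 to −0.20 in hda6-9, none with an adjusted p under 0.05. With 1 value per locus the difference of PIP1-4 in hda6-10 was 0.05 (adjusted p = 0.76). The rise was seen with 1 of 5 probes, and whether that probe detects a separate transcript could not be checked. It was lost without any single array other than hda6-10 replicate 2 (adjusted p up to 0.15), and within the slide of hda6-10 and ros1-1 replicate 1 (1.07, adjusted p = 0.13).

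The vacuolar aquaporins held the changes above 2-fold. TIP3-2 (AT1G17810), a water channel of the storage vacuole known from maturing seeds, had levels of −4.35 and −4.07 in hda6-10, −3.75 and −4.30 in hda6-9, −5.98 and −5.53 in ros1-1 and −5.80 and −6.72 in C24. All 4 arrays of the hda6 alleles lay above all 4 arrays of ros1-1 and C24. TIP3-2 rose 2.92-fold in hda6-10 (1.55 ± 0.36, adjusted p = 0.047) and 3.32-fold in hda6-9 (1.73 ± 0.36, adjusted p = 0.035), and hda6-10 minus hda6-9 was −0.18 ± 0.36 (adjusted p = 0.79). Without any single hda6 or ros1-1 array both calls were lost, with adjusted p up to 0.19 and differences between 1.32 and 1.77 in hda6-10 and between 1.45 and 2.01 in hda6-9. The differences within slides were as large, at 1.77 for hda6-10 and 1.78 for hda6-9, with adjusted p of 0.14 and 0.21, and in hda6-10 quantile normalization gave 1.28 (adjusted p = 0.068). Normexp background correction gave smaller differences with lower adjusted p, at 1.04 in hda6-10 (adjusted p = 0.006) and 0.93 in hda6-9 (adjusted p = 0.011), the one in hda6-9 being under 2-fold.

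TIP3-1 (AT1G73190), the other seed TIP, had hda6 levels that overlapped those of ros1-1. Its levels were −3.59 and −3.63 in hda6-10, −2.85 and −5.17 in hda6-9, −3.90 and −2.52 in ros1-1 and −3.84 and −5.15 in C24. The lowest values were those of hda6-9 replicate 2 and C24 replicate 2, the same 2 arrays on which the summed seed level was low. The differences were −0.40 ± 0.88 in hda6-10, −0.80 ± 0.88 in hda6-9 and 1.28 ± 0.88 for ros1-1 minus C24, with adjusted p of 0.82, 0.58 and 0.65. Without hda6-9 replicate 2 the hda6-9 difference changed sign, to 0.36. On the same 2 arrays TIP3-2 was lower than on the other array of the genotype, at −4.30 in hda6-9 replicate 2 and at −6.72, the lowest of the 8, in C24 replicate 2, and its level in hda6-9 replicate 2 was above both of its levels in ros1-1. The part of seed transcripts in the TIP3-2 difference was not tested.

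**Figure D2:**
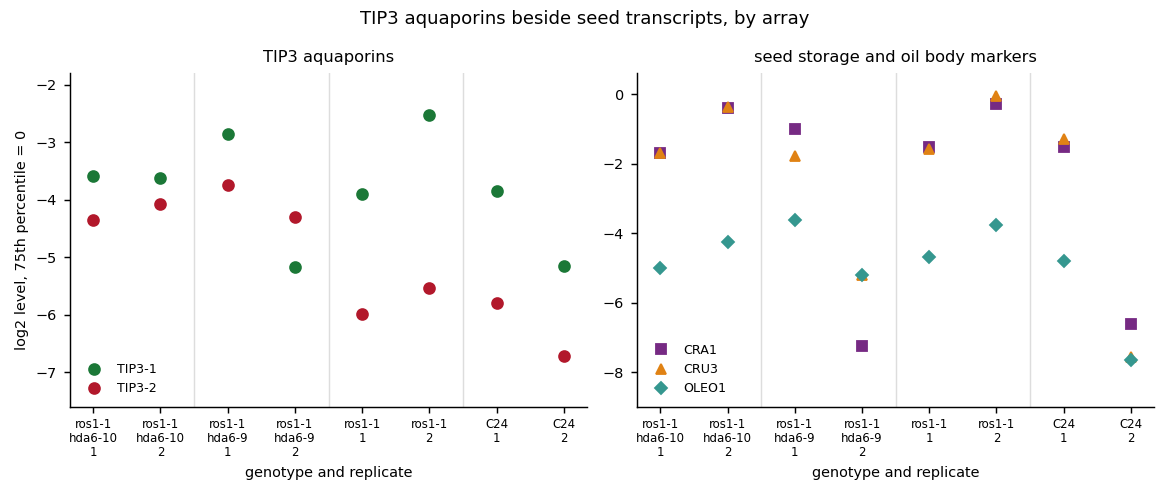
Levels (log2, with the 75th percentile of each array at 0) of TIP3-1 and TIP3-2 (left) and of the seed markers CRA1, CRU3 and OLEO1, each by its brightest probe (right), on each of the 8 arrays by genotype and replicate. TIP3-2 is higher on all 4 hda6 arrays than on the ros1-1 and C24 arrays. TIP3-1, CRA1 and CRU3 have their lowest values in hda6-9 replicate 2 and C24 replicate 2, a statement that leaves out OLEO1. The 7 tested seed marker probes did not move alike, with differences of −3.30 to −0.20 in hda6-9 against ros1-1.

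TIP2-2 (AT4G17340), a vacuolar channel known from roots that also carries ammonia, was higher in hda6-10 with all 4 of its probes. Probe A_84_P860230 had levels of 1.36 and 1.29 in hda6-10, 0.09 and 0.56 in hda6-9, 0.53 and 0.10 in ros1-1 and 0.39 and 0.37 in C24. The 6 arrays without hda6-10 overlapped freely and both hda6-10 arrays stood above them. The probe rose 2.01-fold in hda6-10 (1.01 ± 0.20, adjusted p = 0.029), and probe A_84_P16751 rose 2.03-fold (1.02 ± 0.22, adjusted p = 0.039). The other pair of probes differed by 1.00 and 1.04, with adjusted p of 0.060 and 0.079, and with 1 value per locus the difference was 1.02 ± 0.24 (adjusted p = 0.046). In hda6-9 the 4 probes differed by 0.14 or less, with adjusted p of 0.71 or more.

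Set against each other, hda6-10 exceeded hda6-9 by 0.88 to 1.04 over the 4 TIP2-2 probes, with adjusted p of 0.057 to 0.11, so a difference between the alleles in TIP2-2 did not pass the test. The call of A_84_P860230 in hda6-10 was lost without either hda6-10 array, ros1-1 replicate 2 or either C24 array (adjusted p up to 0.13), and A_84_P16751 also without ros1-1 replicate 1 (adjusted p up to 0.16). Within the slide of hda6-10 and ros1-1 replicate 1 the differences were 0.79 (adjusted p = 0.046) and 0.81 (adjusted p = 0.051). The summed root level was lower on both hda6-10 arrays than on both ros1-1 arrays.

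TIP2-3 (AT5G47450), a related root channel for water and ammonia, was 0.95 ± 0.36 and 0.75 ± 0.22 higher in hda6-10 over its 2 probes, with adjusted p of 0.17 and 0.091. The abundant leaf and root channels moved less. In hda6-10, TIP1-1 (AT2G36830) differed by 0.05 to 0.35 over 4 probes, TIP1-2 (AT3G26520) by −0.17 to −0.11 over 5 and TIP2-1 (AT3G16240) by −0.26 to −0.09 over 5. In hda6-9 these genes differed by 0.16 to 0.42, 0.14 to 0.33 and 0.01 to 0.26. The lowest adjusted p among these 14 probes was 0.18 in hda6-10 and 0.062 in hda6-9. TIP4-1 (AT2G25810) differed by −0.42 and TIP5-1 (AT3G47440), known from pollen, by 0.42 in hda6-10, both with adjusted p above 0.25.

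NIP and SIP genes included the members that fell. NIP5-1 (AT4G10380), the boric acid importer of the root plasma membrane, had levels of −1.82 and −1.85 in hda6-10, −1.46 and −1.44 in hda6-9, −1.44 and −1.54 in ros1-1 and −1.67 and −1.61 in C24. The hda6-10 arrays were the lowest of the 8, and hda6-9 overlapped ros1-1. NIP5-1 fell to 0.785 of the ros1-1 level in hda6-10 (−0.35 ± 0.08, adjusted p = 0.039) and differed by 0.04 ± 0.08 in hda6-9 (adjusted p = 0.79). The direct difference of the alleles was −0.39 ± 0.08 (adjusted p = 0.055). Leaving out any single array took the call in hda6-10 away (adjusted p 0.070 to 0.18), as did the comparison within the slide (−0.40, adjusted p = 0.14).

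SIP1-1 (AT3G04090), an aquaporin of the endoplasmic reticulum, was lower in hda6-10 with both of its probes. Probe A_84_P851649 had levels of 0.95 and 0.98 in hda6-10, 1.09 and 1.08 in hda6-9, 1.36 and 1.32 in ros1-1 and 1.39 and 1.45 in C24. Probe A_84_P152328 had levels of 1.70 and 1.68 in hda6-10, 1.69 and 1.71 in hda6-9, 1.99 and 1.97 in ros1-1 and 1.95 and 2.0 in C24. With either probe, all hda6 arrays lay below all ros1-1 and C24 arrays. SIP1-1 fell by 0.37 and by 0.29 in hda6-10 (adjusted p = 0.025 and 0.049), and differed by −0.26 and −0.28 in hda6-9 (adjusted p = 0.070 and 0.054). These are changes of under 1.5-fold, and each call was lost on leaving out any single array (adjusted p up to 0.19) and within the slide (adjusted p = 0.14 and 0.21).

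The other NIP and SIP genes did not pass the test. NIP1-2 (AT4G18910) differed by 0.34 ± 0.09 in hda6-10 and 0.22 ± 0.09 in hda6-9 (adjusted p = 0.072 and 0.17), and NIP7-1 (AT3G06100), a boric acid channel known from anthers, by −0.41 and −0.42 (adjusted p = 0.13 and 0.12). NIP2-1 (AT2G34390), which is induced by low oxygen, differed by −0.46 ± 0.27 in hda6-10 and −0.74 ± 0.27 in hda6-9 (adjusted p = 0.34 and 0.12). NIP1-1 (AT4G19030), NIP3-1 (AT1G31885) and NIP4-2 (AT5G37820) had differences of −0.33 to 0.34 in hda6-10 and −0.42 to 0.29 in hda6-9. SIP1-2 (AT5G18290) differed by 0.03 and 0.75 in hda6-10 and hda6-9, with adjusted p of 0.97 and 0.15, and SIP2-1 (AT3G56950) by 0.14 and 0.19. The NIP median was −0.15 in hda6-10 and −0.19 in hda6-9 over 8 probes, and in hda6-10 it changed sign under normexp background correction, to 0.37.

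**Figure D3:**
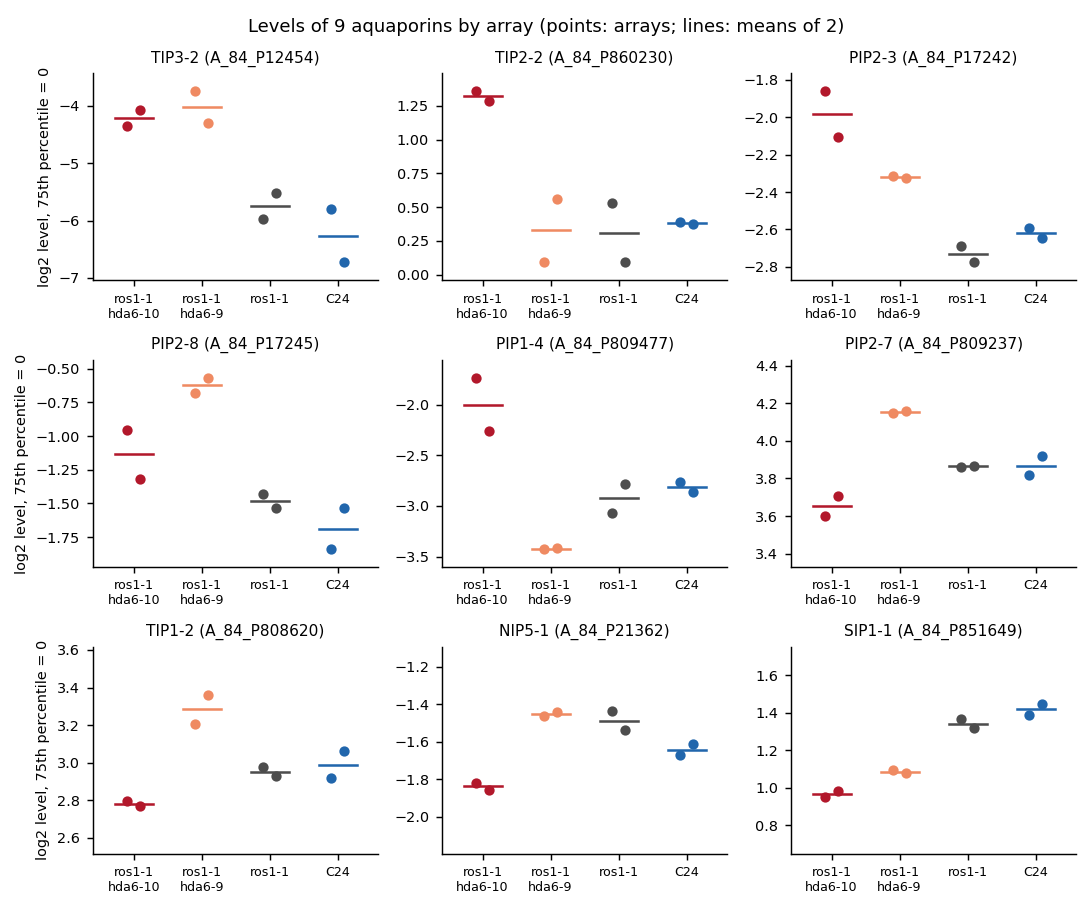
Levels (log2, y axis, with the 75th percentile of each array at 0) of the 9 aquaporin loci with an adjusted p under 0.05 in any comparison, 1 probe each, by genotype (x axis), with a point for each array and a line at the mean of 2. All hda6-10 and hda6-9 arrays lie above those of ros1-1 and C24 in TIP3-2, PIP2-3 and PIP2-8, and below them in SIP1-1. With the probe that passed the test in PIP1-4, PIP2-7 and TIP1-2, the alleles lie on opposite sides of ros1-1 and C24. In TIP2-2 the hda6-10 arrays alone lie apart. In NIP5-1 they are the lowest, with the C24 arrays between them and the overlapping arrays of hda6-9 and ros1-1.

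The alleles were also compared directly, by hda6-10 minus hda6-9, to ask whether mutations at different places in HDA6 left different transcript levels. PIP1-4 was higher in hda6-10 with 1 probe, and single probes of PIP2-7 and TIP1-2 were lower. By the rule with a minimum fold, 1 of 77 probes (1.3%) was higher, beside 1.44% of all tested probes, and 0 were lower, beside 0.54%. Without the minimum fold, 1 probe was higher (background 2.46%) and 2 were lower (background 1.4%). The probe of PIP1-4 was A_84_P809477, which exceeded hda6-9 by 2.68-fold (1.42 ± 0.19, adjusted p = 0.027), while the other 4 probes of the locus differed by 0.04 to 0.31 (adjusted p of 0.11 or more). Arrays did not overlap for 15 probes that were higher (19.5%) and 23 that were lower (29.9%), beside 25.8% and 29.4% of all tested probes. The PIP1-4 call was lost without hda6-10 replicate 1, either hda6-9 array or either C24 array (adjusted p up to 0.14).

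PIP2-7 (AT4G35100) and TIP1-2, water channels of the plasma membrane and the vacuole, were each lower in hda6-10 than in hda6-9 with all 5 of their probes. Probe A_84_P809237 of PIP2-7 had levels of 3.60 and 3.71 in hda6-10, 4.15 and 4.16 in hda6-9, 3.86 and 3.87 in ros1-1 and 3.82 and 3.92 in C24. Probe A_84_P808620 of TIP1-2 had levels of 2.80 and 2.77 in hda6-10, 3.21 and 3.36 in hda6-9, 2.98 and 2.93 in ros1-1 and 2.92 and 3.06 in C24. With either probe hda6-10 was lowest and hda6-9 highest, and ros1-1 and C24 overlapped between them. The differences of these probes were −0.50 ± 0.08 (adjusted p = 0.036) and −0.50 ± 0.09 (adjusted p = 0.047). Over the 5 probes they ran from −0.50 to −0.20 for PIP2-7 and from −0.50 to −0.26 for TIP1-2, with 4 of each 5 above the threshold.

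With 1 value per locus the differences were −0.36 for PIP2-7 (adjusted p = 0.056) and −0.37 for TIP1-2 (adjusted p = 0.12). Leaving out any single array took both calls away, with adjusted p of 0.063 to 0.16 for PIP2-7 and 0.076 to 0.15 for TIP1-2. No slide holds both alleles, and a fit with slide as a term, which joins them through ros1-1, gave −0.49 and −0.47 with adjusted p of 0.41 and 0.42. TIP2-1 ran in the same direction with all 5 probes, by −0.43 to −0.10, with adjusted p of 0.079 to 0.69. The 95% interval of the difference between the alleles lay within 2-fold for 66 of 77 probes.

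**Figure D4:**
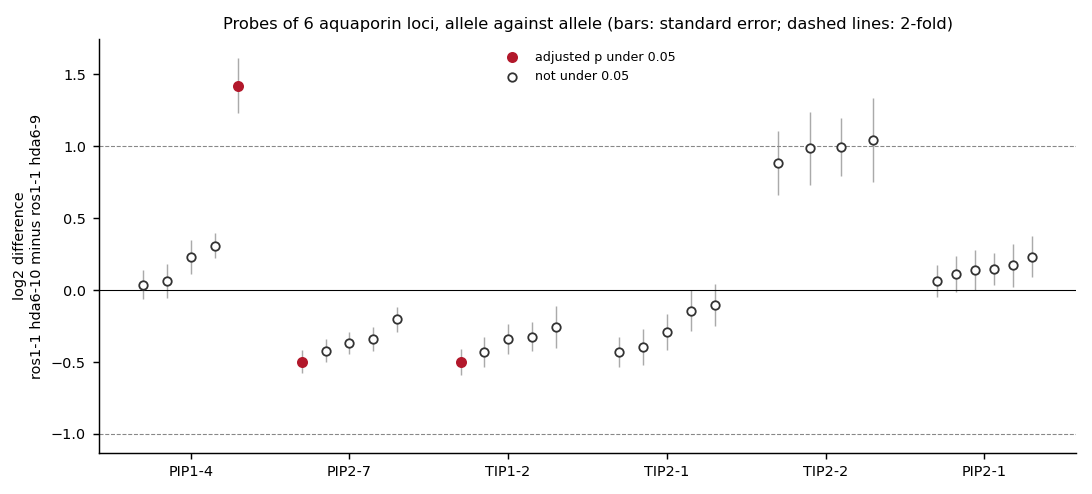
Difference in level (log2, y axis) between hda6-10 and hda6-9 for each probe of PIP1-4, PIP2-7, TIP1-2, TIP2-1, TIP2-2 and PIP2-1 (x axis), in rising order within a locus, with standard errors as bars and dashed lines at 2-fold. The 5 probes of PIP2-7 and of TIP1-2 all lie below 0, the 4 of TIP2-2 lie close to 1, and in PIP1-4 a single probe stands at 1.42 while the other 4 lie between 0.04 and 0.31.

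The ros1-1 mutation alone left the aquaporins without a call. Against C24, 0 of 77 probes were higher and 0 lower by limma at an adjusted p under 0.05 with a change above 2-fold, beside 0.0932% and 0.342% of all tested probes, and 0 passed without the minimum fold (background 0.102% and 0.373%). Arrays did not overlap for 24 probes that were higher (31.2%) and 17 that were lower (22.1%), beside 20.3% and 24.4% of all tested probes. At an unadjusted p under 0.05 with the 2-fold minimum, 0 were higher and 1 was lower, a probe of TIP2-3. The largest differences among members above background in both genotypes were those of TIP3-1, given above, and of TIP2-3. Probe A_84_P15932 of TIP2-3 had levels of −7.64 and −8.27 in ros1-1 and −7.34 and −6.30 in C24, and probe A_84_P816904 had −5.35 and −5.54 in ros1-1 and −4.94 and −4.64 in C24. With both probes ros1-1 lay below C24, by 1.14 ± 0.36 and 0.65 ± 0.22, but the adjusted p were 0.32 and 0.35. The sizes depended on the background correction and on the C24 arrays. Normexp gave −0.11 and −0.31 for the same differences, and without C24 replicate 1 and without C24 replicate 2 they were −1.66 and −0.62 for A_84_P15932, with −0.80 and −0.50 for A_84_P816904. The 95% interval lay within 2-fold for 70 of 77 probes, and the family medians ran from −0.04 (SIP) to 0.16 (TIP).

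The families were set side by side across the 4 genotypes as the mean over loci minus that of ros1-1. For PIP1 this mean stood at 0.06 for hda6-10, −0.05 for hda6-9 and 0.00 for C24, and for PIP2 at 0.27, 0.28 and 0.00. For TIP it was 0.32, 0.19 and −0.14, for NIP 0.05, −0.19 and 0.06, and for SIP −0.06, 0.22 and −0.02. In PIP2 the 4 arrays of the hda6 alleles had means of 0.19 to 0.38 and the 4 arrays of ros1-1 and C24 of −0.03 to 0.03. The PIP2 means include PIP2-3, at 0.75 in hda6-10 and 0.41 in hda6-9, and PIP2-8, at 0.35 and 0.86. They were not recomputed without these genes, and PIP2-7 lay below 0 in hda6-10, at −0.19. The TIP means included TIP3-2, and without it were 0.17 for hda6-10, −0.002 for hda6-9 and −0.09 for C24. Over the TIP probes, medians were −0.02 in hda6-10, with 12 probes above 0 and 12 below, and 0.17 in hda6-9, with 19 above and 5 below. In PIP1 all 8 arrays lay between −0.10 and 0.07, and in NIP and SIP the hda6-10 arrays fell on both sides of 0, whereas both hda6-9 arrays lay below all ros1-1 and C24 arrays in NIP and above them in SIP. The NIP means include the dim and variable NIP6-1, which differed by 1.25 ± 1.32 in hda6-10 and −0.63 ± 1.32 in hda6-9. The SIP mean of hda6-9 includes SIP1-2 at 0.75 ± 0.29, while both SIP1-1 probes were lower there, at −0.28 and −0.26. The NIP and SIP means were not recomputed without these loci. All these family means weight each locus equally and are descriptions with no test.

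Genes that work beside aquaporins were looked up as lists. Of 11 proton pump genes of the AHA family with 14 probes, 2 rose in each allele at an adjusted p under 0.05. By that rule 8.62% of all tested probes rose in hda6-10 and 8.72% in hda6-9, and no difference from the whole array was read from counts this small. Most pumps of this family power solute uptake across the plasma membrane, where PIP proteins lie. AHA4 had levels of −1.25 and −1.38 in hda6-10, −1.02 and −1.12 in hda6-9, −2.99 and −3.18 in ros1-1 and −3.08 and −3.23 in C24. All hda6 arrays were well above the others, and AHA4 rose by 1.77 ± 0.11 in hda6-10 and 2.02 ± 0.11 in hda6-9 (adjusted p = 0.00051 and 0.0003). AHA10 rose by 1.04 and 1.23 (adjusted p = 0.0038 and 0.002). For hda6-10 minus hda6-9, 1 of 3 probes of AHA1, named after its values were seen, was higher, by 0.40 (adjusted p = 0.047). Of 3 genes of vacuolar proton pumps with 6 probes, 0 passed the test in any comparison, with differences of −0.26 to 0.20 in all of them.

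Of 7 borate exporter genes, which move boric acid out of the cells that NIP channels load, 6 had a probe. BOR7 had levels of −3.71 and −5.06 in hda6-10, −3.75 and −4.08 in hda6-9, −7.19 and −6.45 in ros1-1 and −7.27 and −6.39 in C24, and rose by 2.44 and 2.91 (adjusted p = 0.040 and 0.025). BOR5 differed by 0.01 in hda6-10 and fell by 1.07 in hda6-9 (adjusted p = 0.98 and 0.0059), and hda6-10 exceeded hda6-9 by 1.08 (adjusted p = 0.024). Among 7 genes for the trafficking, turnover and phosphorylation of PIP proteins with 11 probes, 0 rose in either allele. By less than 2-fold, 3 probes fell in hda6-10 and 1 in hda6-9, beside 3.43% and 3.47% of all tested probes that fell without a minimum fold. These belonged to RMA1 and RMA2, ubiquitin ligases of the endoplasmic reticulum, which are named here after their values were seen. In hda6-10, 2 of 3 RMA1 probes fell by 0.81 and 0.88 (adjusted p = 0.014 and 0.016) while the third differed by 0.41 (adjusted p = 0.27), and RMA2 by 0.51 (adjusted p = 0.024), and in hda6-9 RMA2 fell by 0.41 (adjusted p = 0.046).

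In whole seedlings, fewer cells of a type and less RNA per cell cannot be told apart. The part of the leaf, seed, root and cold-induced transcripts above in the aquaporin differences was not tested beyond the values given.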

How the data were processed

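The authors' scanner files held Cy3 spot intensity from Agilent Feature Extraction 10.7.1.1, background-subtracted and spatially detrended, deposited for each array without normalization between arrays. The deposited value table held the background-subtracted intensity of the same arrays. Processed signals were shifted on the log2 scale to the 75th percentile of each array, as in the study's methods. Control and outlier spots were left out, and spots of a probe averaged. A probe was tested where both arrays of any genotype were flagged well above background (35391 probes), with limma 3.58.1 in R 4.3.3 over all 8 arrays and 4 genotype means, with Benjamini-Hochberg adjustment over all of them. The 2 arrays of a genotype carry replicate numbers in the labels, whereas the study's methods name 4 biological replicates per sample. A call was an adjusted p under 0.05, with or without a change above 2-fold. The fit was tested on simulated data for hda6-10 against ros1-1. Of 100 probes given a change of 0.5 on the log2 scale, 1 passed at an adjusted p under 0.05 by limma. Of 100 given a change of 1.5, 63 passed. Only these probes were changed among 35249, whereas in the data 3051 probes rose and 1214 fell at that threshold. The adjustment was thus stricter in the simulation, and these shares are not the recovery in the data. A member that did not pass was not shown to be unchanged.

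Members with an adjusted p under 0.05 in any comparison, and the 3 with the largest change in each comparison among those above background in both genotypes, were given in full. Listed partner genes were named where they passed both limits, and AHA1, RMA1 and RMA2 after their values were seen. The members and lists were chosen with earlier results of these data known. Loci and names follow RefSeq (assembly TAIR10.1). The array design names an older build, so no coordinates are given. The number of arrays limits the precision.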

Additional observations from a re-analysis of the deposited data

How the results depend on the processing

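With 2 arrays per genotype, most calls lay close to the threshold. Counts of member probes higher by both limits in hda6-10 against ros1-1, 3 in the main analysis, were 1 under a median shift, without the filter on dim probes, or with only the arrays of both genotypes, 0 with the deposited value table, slide as a fixed block or the replicate block, and 5 without the minimum fold, above 1.5-fold, or at an unadjusted p. Those in hda6-9 against ros1-1, 1 in the main analysis, were 0 under normexp, slide as a fixed block or the replicate block, and 2 without the minimum fold or above 1.5-fold. Those in hda6-10 against hda6-9, 1 in the main analysis, were 0 with 1 value per locus, with the arrays of both alleles alone, slide as a fixed block or the replicate block, and 2 at an unadjusted p. Counts of lower probes, 0 in the main analysis, were 3 (hda6-10 against ros1-1) and 2 (hda6-10 against hda6-9) without the minimum fold, and 1 (ros1-1 against C24) at an unadjusted p. Leaving out single arrays gave 0 to 2, 0 to 1 and 0 to 1 higher probes in the first 3 comparisons, and 0 for ros1-1 against C24 and for all counts of lower probes. After the data were seen, 2 alternatives were added. Without the arrays low in seed transcripts the counts of higher probes were 1, 1 and 0, and without those low in root transcripts 1, 0 and 0. The cause of these moves was not tested. The alternatives that drop arrays also have fewer of them. Normexp moved the median of all probes in hda6-10 against ros1-1 to 0.11. TIP3-1 in hda6-9 against ros1-1 ran from −1.964 to 0.357 when single arrays were left out, and it changed sign, to 0.357, without hda6-9 replicate 2 and without the arrays low in seed transcripts. No other named difference changed sign, but 159 of the recomputed values lost an adjusted p under 0.05 in the same direction, against 272 that stayed on their side of it and 3 that newly passed. The slide could not be fitted as a fixed block for ros1-1 against C24.

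Arrays of the same replicate number did not deviate together (correlations of −0.38 to 0.063 over the 6 pairs of genotypes), so the number is only a name. The −0.38 was that of hda6-9 and ros1-1, so hda6-9 replicate 1 tended to deviate with ros1-1 replicate 2, and these arrays share a slide. The next lowest, −0.30, was that of hda6-10 and C24, which share none. The part of the slide was not tested. The replicate block took the counts of higher probes to 0, 0 and 0 in the first 3 comparisons.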
